A study of Mus musculus with 43 samples.

Results

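The 10 genes described here encode transcription factors of the secretory lineages of the intestinal epithelium: Atoh1, Spdef, Gfi1, Neurog3, Neurod1, Insm1, Pax4, Isl1, Sox4 and Pou2f3. They were matched by gene symbol, after the set had been chosen with earlier results of these data known. All 10 were found among the 23951 genes of each of the 3 FPKM tables (fragments per kilobase of transcript and 1000000 mapped fragments). All 10 were also found among the 54307 gene rows of the 7 single-cell libraries. Their values were followed across irradiation, transforming growth factor beta 1 (TGFB1), culture day and treatment time.

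The bulk RNA libraries came from primary intestinal organoids of wild-type C57BL/6 mice, small epithelial cultures grown from crypts, in 6 groups of 3 libraries. Organoids were left unirradiated and collected on day 7, or received 4 Gy on day 4 and were collected on day 7 or on day 11. Within each of these 3 conditions, vehicle or 2 ng/mL TGFB1 was given on day 6 for 24 h, so that the day 11 organoids were collected after the treatment had ended. The single-cell libraries came from organoids that all received 4 Gy on day 4 and were collected on day 8, after vehicle (called 0 h) or after 6 h, 15 h or 24 h of 1 ng/mL TGFB1, with 1 library each. Crypt cells of the proximal small intestine of Mki67tm1.1Cle/J mice, which carry a red fluorescent Ki67-RFP reporter of proliferating cells, gave 3 more single-cell libraries of sorted reporter-positive, DAPI-negative cells: 2 from mice 56 h after 12 Gy and 1 from an unirradiated littermate. The unirradiated and irradiated crypts passed through strainers of different pore size, so strainer and irradiation cannot be told apart in that comparison. Nothing in the labels says that the 3 libraries of an organoid group came from separate cultures or animals, so the p-values below measure the spread between these libraries, which may be technical.

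In the intestinal crypt, progenitors with low Notch activity express Atoh1, the basic helix-loop-helix factor needed for all classical secretory lineages, while Notch signalling represses it in neighbouring cells through Hes1. Downstream of Atoh1, Gfi1 and Spdef act in goblet and Paneth cells, whereas Neurog3 starts the enteroendocrine programme, which continues through Neurod1, Insm1, Pax4 and Isl1. Pou2f3 is the factor that defines tuft cells, the chemosensory cells of the epithelium. Sox4 is a high mobility group box factor of crypt progenitors that has been placed upstream of both enteroendocrine and tuft cells, and it is a known TGF-beta target in several other cell types.

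Promoter sequence was available for 7 of the 10 genes in the RefSeq table of build GRCm38.p6, as 8 windows that run from 250 bases before the start site to 50 bases after it. The windows were searched on both strands for the E-box CANNTG, the letters that basic helix-loop-helix factors such as Atoh1, Neurog3 and Neurod1 bind, and for its form CAGCTG. Its form CAGATG was searched as well, and so was CAGGTG; each of these is also counted as CANNTG. The 250 bases before the start are printed, 5′ to 3′ on the gene's strand. They are given for the gene that rose most with TGFB1 and for the enteroendocrine gene that fell most on day 7. They are also given for Atoh1 and Spdef, whose TGFB1 effect differed between days. The 2 windows of Gfi1, whose effect differed between days too, each held 1 CANNTG and are not printed. Capitals mark CANNTG.
Sox4 (chr13:28953700-28953949, minus strand): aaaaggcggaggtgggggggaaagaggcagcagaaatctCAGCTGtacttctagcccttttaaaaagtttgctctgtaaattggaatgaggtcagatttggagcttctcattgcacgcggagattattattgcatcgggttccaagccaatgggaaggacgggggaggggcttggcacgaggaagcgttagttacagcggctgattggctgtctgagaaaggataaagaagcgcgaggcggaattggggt
Neurog3 (chr10:62132840-62133089, plus strand): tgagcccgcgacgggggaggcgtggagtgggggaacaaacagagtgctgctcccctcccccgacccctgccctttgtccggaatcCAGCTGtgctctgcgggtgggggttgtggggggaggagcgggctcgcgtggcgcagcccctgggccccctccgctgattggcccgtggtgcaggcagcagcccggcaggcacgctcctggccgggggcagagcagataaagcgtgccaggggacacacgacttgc
Atoh1 (chr6:64728875-64729124, plus strand): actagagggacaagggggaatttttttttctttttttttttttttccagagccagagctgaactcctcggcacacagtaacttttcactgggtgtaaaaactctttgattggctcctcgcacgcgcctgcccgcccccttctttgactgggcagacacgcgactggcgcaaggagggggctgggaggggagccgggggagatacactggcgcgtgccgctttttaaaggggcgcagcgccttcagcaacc
Spdef (chr17:27728952-27729201, minus strand): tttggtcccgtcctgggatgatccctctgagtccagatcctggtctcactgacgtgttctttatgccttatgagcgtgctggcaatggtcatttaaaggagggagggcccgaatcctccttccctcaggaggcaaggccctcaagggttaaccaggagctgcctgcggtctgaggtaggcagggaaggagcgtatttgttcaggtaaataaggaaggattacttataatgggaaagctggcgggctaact
Sox4 and Neurog3 each held 1 CAGCTG, which starts 211 bases before the Sox4 start and 165 bases before the Neurog3 start. Isl1 held one as well, at 103 bases before its start, and CAGCTG was present in 16.3% of the 32851 promoter windows of the table. No window of these genes held CAGATG, which was present in 17.2% of all windows, and 1 of the 2 Gfi1 windows held CAGGTG, present in 20.2%. Atoh1 and Spdef held no CANNTG, which 5 of the 7 genes and 72.3% of all windows held. Neither the palindromic Smad motif GTCTAGAC (0.213% of all windows) nor TATAAA (13.6%) was found in any of the 8 windows. These matches describe letters in the windows and not binding.

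FPKM summed to between 447728 and 621996 per bulk library, and no read totals come with the tables, so the depth behind each FPKM value is unknown. The epithelial identity of the organoids was checked against markers of other cell types: summed over each list, immune markers reached 2.77 to 23.6 FPKM, mesenchymal markers 0.437 to 4.86 FPKM and enteric neuron and glia markers 1.85 to 7.38 FPKM per library. Of their defining genes, Ptprc, Cd3e, Col1a2, Col3a1, Pdgfra and Sox10 stayed below 0.1 FPKM in every library. Other listed genes did not. With TGFB1 and in vehicle, mean Laptm5 was 10.1 and 0.140 FPKM on day 11, and mean Cd68 21.8 and 8.57 FPKM without irradiation. On day 7 after irradiation, Csf1r was at 1.34 and 0.345 FPKM and Acta2 at 3.22 and 0.419 FPKM. Pdgfrb was lower with TGFB1 there, at 0.115 and 0.282 FPKM. The immune sum was 8.26 to 10.1 FPKM in vehicle and 22.1 to 23.6 FPKM with TGFB1 without irradiation, 2.77 to 3.72 and 6.26 to 6.96 FPKM on day 7 after it, and 4.46 to 6.43 and 16.9 to 19.4 FPKM on day 11; its part in the effects below was not tested.

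Sox4 was the one of these genes that rose with TGFB1 in all 3 conditions, and Neurog3 and Insm1 fell in all 3. Effects are differences of log2(FPKM + 1), TGFB1 minus vehicle, fitted with limma within each table and adjusted by Benjamini-Hochberg over all genes tested, with calls at an adjusted p under 0.05. With a minimum mean of 0.1 FPKM, at which all 10 genes could be tested, TGFB1 raised 1 and lowered 4 of the 10 on day 7 without irradiation, where 61.6% of all genes tested were called, 30.4% higher and 31.2% lower. On day 7 after irradiation it raised 2 and lowered 6, against 68.0% of all genes called (33.4% higher, 34.6% lower), and on day 11 it raised 3 and lowered 5, against 60.3% (29.9% higher, 30.4% lower). With a minimum mean of 1 FPKM, 4 of 7, 7 of 8 and 6 of 8 genes tested were called, against 68.2%, 75.5% and 63.9% of all genes. Because most genes in these tables were called, the share of called members was near the background in each condition. At that minimum the median effect over the members tested was −0.12, −0.28 and −0.10 on the log2 scale, beside −0.017, −0.028 and 0.014 over all genes. In bulk RNA, fewer cells of a lineage and less RNA of the gene per cell cannot be told apart. Plots of the FPKM of every library and of the 3 fitted effects are given for all 10 genes.

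**Figure D1:**
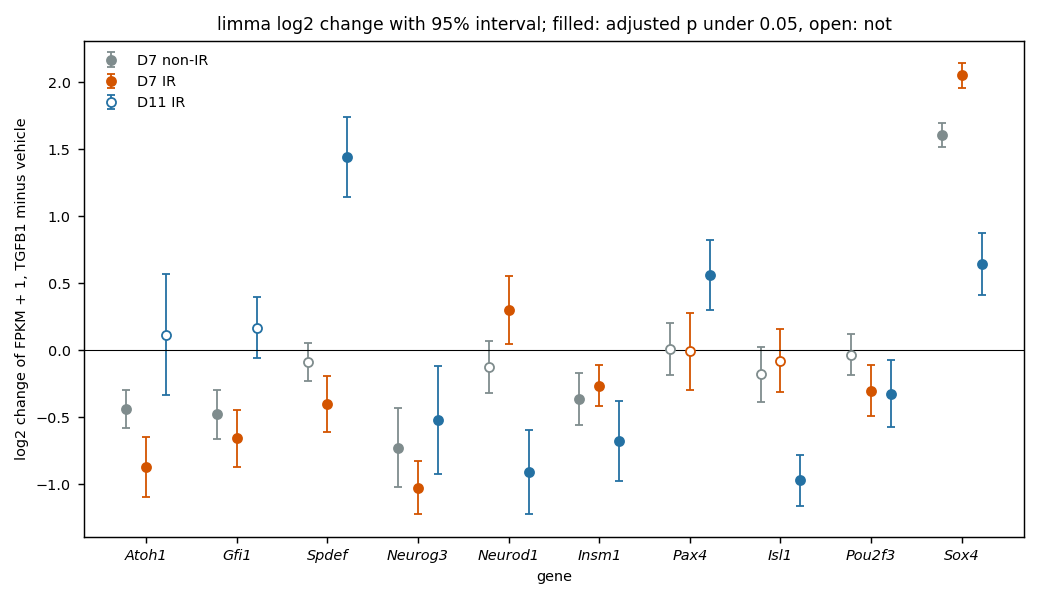
Fitted difference of log2(FPKM + 1), TGFB1 minus vehicle, for each gene and condition at the minimum mean of 0.1 FPKM, with 95% confidence intervals; filled points passed an adjusted p under 0.05 (limma, Benjamini-Hochberg). Spdef and Pax4 are above 0 and called on day 11 alone, and Sox4 is above 0 in all 3 conditions.

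Atoh1 was lower with TGFB1 at day 7 in both irradiation states and similar in the 2 arms at day 11. In unirradiated organoids, Atoh1 stood at 8.53, 8.79 and 8.91 FPKM in vehicle and at 5.60, 6.71 and 6.30 FPKM with TGFB1. After irradiation the day 7 values were 10.8, 11.1 and 11.2 FPKM in vehicle and 6.57, 5.72 and 4.59 FPKM with TGFB1. The arms did not overlap in either condition, and the fitted falls were −0.44 (SE 0.063, adjusted p = 0.000107, limma) and −0.87 (SE 0.097, adjusted p = 1.55e-05, limma). On day 11 the values were 12.98, 11.9 and 8.06 FPKM in vehicle and 14.1, 12.9 and 9.01 FPKM with TGFB1. These arms overlapped, replicate 3 was the lowest of both, and the effect of 0.12 (SE 0.20) did not pass the test (adjusted p = 0.627, limma).

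Gfi1, a zinc-finger repressor that keeps goblet and Paneth precursors from the endocrine fate, fell alongside Atoh1 at day 7. Its FPKM was 1.15, 1.08 and 1.06 in unirradiated vehicle organoids and 0.362, 0.541 and 0.630 with TGFB1. In irradiated organoids it was 1.42, 0.938 and 1.23 FPKM in vehicle and 0.457, 0.363 and 0.347 FPKM with TGFB1. TGFB1 means were 0.466 and 0.325 times the vehicle means, with no overlap, and both falls passed at the minimum of 0.1 FPKM (−0.48, adjusted p = 0.000589, and −0.66, adjusted p = 0.000165, limma). At day 11 Gfi1 stood at 0.687 to 1.06 FPKM in vehicle and 1.06 to 1.22 FPKM with TGFB1, and the effect of 0.17 did not pass (adjusted p = 0.226, limma).

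Spdef, an ETS factor of goblet and Paneth cell maturation, moved in opposite directions at the 2 collection days of irradiated organoids. On day 11 it stood at 8.63, 7.71 and 6.57 FPKM in vehicle and at 26.2, 23.0 and 18.5 FPKM with TGFB1. Every TGFB1 library lay above every vehicle library, the mean rose 2.95-fold from 7.63 ± 1.03 to 22.5 ± 3.87 FPKM (SD, n = 3 each), and the effect was 1.44 (SE 0.13, adjusted p = 1.00e-05, limma). On day 7 after irradiation Spdef was 10.8, 10.1 and 10.8 FPKM in vehicle and 8.86, 8.18 and 6.51 FPKM with TGFB1. This fall, again without overlap, was −0.40 (SE 0.091, adjusted p = 0.00254, limma). In unirradiated organoids the arms overlapped at 5.29 to 5.57 FPKM in vehicle and 4.72 to 5.47 FPKM with TGFB1, and the effect of −0.09 did not pass (adjusted p = 0.231, limma).

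Neurog3, the basic helix-loop-helix factor that commits progenitors to the enteroendocrine lineage, was lower with TGFB1 in all 3 conditions. Vehicle and TGFB1 values were 6.57, 5.63 and 5.67 FPKM and 4.04, 2.41 and 3.31 FPKM in unirradiated organoids. In irradiated day 7 organoids they were 11.8, 12.1 and 12.0 FPKM and 6.39, 5.07 and 4.76 FPKM. Neither pair of arms overlapped, and the falls were −0.73 (SE 0.13, adjusted p = 0.000712, limma) and −1.03 (SE 0.086, adjusted p = 1.40e-06, limma). On day 11 vehicle stood at 9.69, 8.97 and 6.73 FPKM and TGFB1 at 6.96, 5.91 and 4.11 FPKM, with TGFB1 replicate 1 above vehicle replicate 3. That fall of −0.52 (SE 0.18) passed with an adjusted p of 0.0282 (limma), but no longer without vehicle replicate 1, vehicle replicate 2 or TGFB1 replicate 3 (adjusted p = 0.0777 to 0.103, limma) or with no filter on low values (0.0591).

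Neurod1, a basic helix-loop-helix factor of differentiating enteroendocrine cells, fell with TGFB1 on day 11. Its day 11 values were 5.94, 5.11 and 4.32 FPKM in vehicle and 2.54, 2.49 and 1.76 FPKM with TGFB1. All TGFB1 libraries lay below all vehicle libraries, with a mean 0.442 times that of vehicle and an effect of −0.91 (SE 0.14, adjusted p = 0.000280, limma). In irradiated day 7 organoids Neurod1 was 3.07, 2.18 and 2.28 FPKM in vehicle and 3.58, 2.83 and 3.55 FPKM with TGFB1. These arms overlapped, and the rise of 0.30 (SE 0.11, adjusted p = 0.0293, limma) was lost without vehicle replicate 2 or 3 or TGFB1 replicate 1 or 3 (adjusted p = 0.0857 to 0.112, limma) and without the filter (0.0642). In unirradiated organoids it stood at 2.78 to 3.26 FPKM in vehicle and 2.46 to 3.14 FPKM with TGFB1, and the effect of −0.12 did not pass (adjusted p = 0.233, limma).

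Insm1, a zinc-finger factor of endocrine cell maturation, fell in each of the 3 conditions. It stood at 2.69, 2.31 and 2.67 FPKM in unirradiated vehicle organoids and at 1.87, 1.49 and 1.94 FPKM with TGFB1. The irradiated day 7 values were 6.36, 5.55 and 5.77 FPKM in vehicle and 4.82, 4.94 and 4.46 FPKM with TGFB1, and the day 11 values were 5.79, 5.85 and 4.95 FPKM and 3.64, 3.32 and 2.38 FPKM. No arms overlapped, and the falls were −0.37, −0.26 and −0.68 (adjusted p = 0.00362, 0.00499 and 0.00138, limma).

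Pax4, a paired-box factor of enteroendocrine subtype choice, and Isl1, a LIM homeodomain factor of late enteroendocrine cells, were called on day 11 alone and in opposite directions. Pax4 was 0.414, 0.426 and 0.213 FPKM in day 11 vehicle organoids and 1.30, 0.803 and 0.886 FPKM with TGFB1. Isl1 was 1.49, 1.65 and 1.36 FPKM in day 11 vehicle organoids and 0.241, 0.267 and 0.315 FPKM with TGFB1. Neither gene's arms overlapped: the Pax4 mean was 2.84-fold higher (effect 0.56, SE 0.12, adjusted p = 0.00261, limma) and the Isl1 mean 5.47-fold lower (effect −0.97, SE 0.086, adjusted p = 1.50e-05, limma), both at the minimum of 0.1 FPKM. On day 7, Pax4 stood at 0.166 to 0.388 FPKM in the 6 unirradiated libraries and at 1.11 to 1.98 FPKM in the 6 irradiated ones, with overlapping arms in both (effects 0.01 and −0.01, adjusted p = 0.913 and 0.965, limma). Isl1 arms on day 7 overlapped too (effects −0.18 and −0.08, adjusted p = 0.118 and 0.540, limma), and without unirradiated TGFB1 replicate 3 the Isl1 fall passed (adjusted p = 0.0470, limma).

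Pou2f3, the tuft cell factor, was called lower after irradiation on both days. Its FPKM was 1.97, 1.98 and 2.33 in day 7 vehicle organoids and 1.65, 1.37 and 1.52 with TGFB1, and 4.81, 4.68 and 3.83 in day 11 vehicle organoids and 3.69, 3.01 and 3.33 with TGFB1. The arms did not overlap on either day, and the falls were −0.30 (SE 0.087, adjusted p = 0.00959, limma) and −0.32 (SE 0.11, adjusted p = 0.0277, limma). The day 11 fall was lost without vehicle replicate 1 or 2 or TGFB1 replicate 2 or 3 (adjusted p = 0.0613 to 0.102, limma). In unirradiated organoids Pou2f3 stood at 1.62 to 1.68 FPKM in vehicle and 1.505 to 1.69 FPKM with TGFB1, and the effect of −0.03 did not pass (adjusted p = 0.703, limma).

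Sox4 had the largest effect of the 10 genes in each day 7 condition and the highest level in every bulk library. It was 39.7, 38.0 and 39.2 FPKM in unirradiated vehicle organoids and 115, 125 and 123 FPKM with TGFB1. In irradiated day 7 organoids it was 47.5, 46.1 and 48.1 FPKM in vehicle and 193, 195 and 209 FPKM with TGFB1. On day 11 it was 55.9, 63.0 and 54.4 FPKM in vehicle and 104, 88.3 and 81.6 FPKM with TGFB1. The arms were apart in all 3 conditions, with mean ratios of 3.10, 4.21 and 1.58 and effects of 1.61 (SE 0.039, adjusted p = 9.93e-11), 2.05 (SE 0.040, adjusted p = 5.34e-11) and 0.65 (SE 0.10, adjusted p = 0.000373, limma).

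Without TGFB1, the genes held a wide range of levels. In unirradiated vehicle organoids the mean FPKM (SD, n = 3) ran from Sox4 at 39.0 ± 0.851 through Atoh1 at 8.74 ± 0.197, Neurog3 at 5.96 ± 0.532, Spdef at 5.40 ± 0.147, Neurod1 at 3.04 ± 0.239, Insm1 at 2.56 ± 0.209, Pou2f3 at 1.64 ± 0.0353, Gfi1 at 1.10 ± 0.0459 and Isl1 at 1.05 ± 0.139 to Pax4 at 0.259 ± 0.115. The libraries of Gfi1 and Isl1 overlapped, and those of the other neighbours in this order did not. The 3 tables were scaled separately, so levels in different conditions are given side by side without a test. Between unirradiated and irradiated day 7 vehicle organoids, 7 genes were higher and 1 lower with no overlap between libraries, where 85.0% of all genes whose mean reached 1 FPKM did not overlap, 40.7% being higher and 44.3% lower. The means of Pax4 and of the lower gene, Isl1, did not reach 1 FPKM over these libraries, so that share does not cover them. Pax4 stood 6.03 times as high after irradiation (0.166 to 0.388 against 1.32 to 1.68 FPKM), Insm1 2.31 times, Neurog3 2.01 times, Spdef 1.96 times, Pou2f3 1.27 times, Atoh1 1.26 times and Sox4 1.21 times, while Isl1 stood at 0.507 times. Gfi1 and Neurod1 overlapped. Between irradiated day 7 and day 11 vehicle organoids, where 66.9% of all genes did not overlap (33.7% higher, 33.1% lower), Isl1 was 2.80 times, Pou2f3 2.12 times, Neurod1 2.04 times and Sox4 1.22 times as high on day 11. Pax4 was at 0.225 times, Neurog3 at 0.708 times and Spdef at 0.720 times its day 7 level, and Atoh1, Gfi1 and Insm1 overlapped. The share between days also needs a mean of 1 FPKM, which Pax4 did not reach.

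The difference between the TGFB1 effects was tested with an interaction term over 12 libraries, each effect being taken within its own table. For irradiation on day 7, 5 of the 7 members tested were called at the minimum of 1 FPKM, against 53.1% of all genes, and 5 of 10 at 0.1 FPKM (2 higher and 3 lower), against 46.7% (22.8% higher, 23.9% lower). The Sox4 rise was larger after irradiation by 0.44 (SE 0.056, adjusted p = 1.39e-05, limma) and the Atoh1 fall was larger by −0.43 (SE 0.12, adjusted p = 0.00943, limma). The Sox4 term passed under every alternative run and the Atoh1 term under all but the fit of all 18 libraries together (adjusted p = 0.125, limma). The terms of Spdef (−0.31, adjusted p = 0.0398), Neurod1 (0.42, adjusted p = 0.0272) and Pou2f3 (−0.27, adjusted p = 0.0441, limma) passed less firmly. The Spdef term was lost without unirradiated vehicle replicate 1 or 2, unirradiated TGFB1 replicate 1 or 3, irradiated vehicle replicate 1 or 3 or irradiated TGFB1 replicate 3 (adjusted p = 0.0508 to 0.0977, limma). The Neurod1 term was lost without unirradiated vehicle replicate 2, unirradiated TGFB1 replicate 1 or 2, irradiated vehicle replicate 2 or 3 or irradiated TGFB1 replicate 1 or 3 (adjusted p = 0.0579 to 0.0706, limma). The Pou2f3 term was lost without any 1 of the 6 unirradiated libraries, irradiated vehicle replicate 3 or irradiated TGFB1 replicate 2 or 3 (adjusted p = 0.0502 to 0.115, limma). Neurog3 (−0.30, adjusted p = 0.161), Insm1 (0.10, adjusted p = 0.466) and, at 0.1 FPKM, Gfi1, Pax4 and Isl1 (adjusted p = 0.260, 0.940 and 0.597, limma) did not pass, although the Neurog3 term did without unirradiated TGFB1 replicate 2 (adjusted p = 0.0143, limma).

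Between irradiated day 7 and day 11 organoids, the TGFB1 effect differed for 8 of the 10 genes at the minimum of 0.1 FPKM (4 higher and 4 lower on day 11), against 59.3% of all genes (27.8% higher, 31.5% lower), and for 6 of 8 at 1 FPKM, against 64.5%. The effect was higher on day 11 for Spdef by 1.84 (SE 0.18, adjusted p = 9.26e-07), for Atoh1 by 0.99 (SE 0.25, adjusted p = 0.00428) and for Gfi1 by 0.82 (SE 0.14, adjusted p = 0.000173, limma). It was lower on day 11 for Neurod1 by −1.21 (SE 0.19, adjusted p = 7.10e-05), for Isl1 by −0.89 (SE 0.13, adjusted p = 7.06e-05) and for Sox4 by −1.41 (SE 0.12, adjusted p = 1.68e-07, limma). The Insm1 term of −0.41 (adjusted p = 0.03004, limma) was lost without irradiated day 7 vehicle replicate 2 or 3, day 7 TGFB1 replicate 1 or 2, day 11 vehicle replicate 1 or 2 or day 11 TGFB1 replicate 3 (adjusted p = 0.0553 to 0.0693, limma). The Pax4 term of 0.57 (adjusted p = 0.0196, limma) was lost without day 7 TGFB1 replicate 3 or day 11 TGFB1 replicate 1 (adjusted p = 0.0539 and 0.0542, limma). Pou2f3 (−0.02, adjusted p = 0.894) and Neurog3 (0.51, adjusted p = 0.0569, limma) did not pass, and Neurog3 did without day 7 TGFB1 replicate 1, day 11 vehicle replicate 1 or day 11 TGFB1 replicate 3 (adjusted p = 0.00463 to 0.0351, limma).

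Genes around these factors were read from lists of the pathway and of each lineage's markers, here as counts at the minimum of 1 FPKM and an adjusted p under 0.05. Of 22 other secretory lineage factors, 5 rose and 3 fell among 14 tested on day 7 without irradiation, 5 and 6 of 13 after irradiation, and 6 and 8 of 15 on day 11; the largest rises were Sox9 at 1.46 (unirradiated) and the pioneer factor Foxa1 at 1.49 and 1.66 (irradiated, day 7 and day 11). Without day 11 vehicle replicate 2, 6 rose and 3 fell. Of the Notch pathway genes 9 rose and 3 fell without irradiation, 6 and 4 after it on day 7, and 4 and 4 of the 13 tested on day 11. The Notch ligand gene Dll1, made by secretory precursors, had effects of −0.63 and −0.48 on day 7 (both called) and −0.23 on day 11 (adjusted p = 0.0548, limma), and the Notch target Hes1, the repressor of Atoh1, had 0.08 (adjusted p = 0.0524), 0.18 (adjusted p = 0.00140) and −0.24 (adjusted p = 0.0504, limma). Over all genes at this minimum, 33.3%, 35.8% and 32.3% were called higher and 34.9%, 39.7% and 31.6% lower in the 3 conditions. Of 10 goblet markers, 9, 8 and 6 fell and 1, 1 and 2 rose (median effects −0.62, −0.58 and −0.51), and the mucin gene Muc2 had effects of −0.68, −0.59 and −0.52 (adjusted p = 1.0004e-06, 1.10e-06 and 0.00202, limma). Counts of the enteroendocrine and tuft lists are given for irradiated organoids only. Without irradiation, called effects of enteroendocrine markers ran from −1.49 for Nts (adjusted p = 4.50e-08, limma) to 3.13 for Pyy (adjusted p = 1.27e-07, limma). Neurog3 and Insm1 fell there too. All 14 enteroendocrine markers tested rose in irradiated day 7 organoids (median effect 0.91), where Neurog3 and Insm1 fell and Neurod1 rose. On day 11, 9 of the 14 fell and 1 rose (median −1.12), and there Neurog3, Neurod1, Insm1 and Isl1 fell and Pax4 rose. The chromogranin gene Chga had effects of 0.89 (adjusted p = 5.50e-09) and −1.38 (adjusted p = 2.49e-06, limma) on those days. All 7 tuft markers tested rose in irradiated day 7 organoids (median effect 0.85), where Pou2f3 fell, with the tuft kinase Dclk1 at 0.85 (adjusted p = 7.26e-06, limma). On day 11, 3 tuft markers rose and 3 fell of 8 tested, and Dclk1 was at −0.01 (adjusted p = 0.925, limma). Of 8 Paneth markers tested, 1 rose and 5 fell without irradiation, 7 rose and 0 fell after it on day 7, and 5 rose and 1 fell on day 11 (median effects −0.14, 0.76 and 0.72), with the lysozyme gene Lyz1 at −0.13, 0.62 and 0.76. The Lyz1 rise on day 7 did not pass after quantile normalization (0.05, adjusted p = 0.409, limma). These lists were chosen with earlier results of the same data known, and no test of a list was made.

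For 6 factors whose mean reached 1 FPKM over the 18 libraries, the closest patterns were found by Pearson's r of log2(FPKM + 1). The 2 closest genes were Sdc3 (0.991) and Mmp15 (0.989) for Sox4, Ppp1r12c (0.970) and Ern2 (0.965) for Spdef, Ccnf (0.930) and Naa40 (0.918) for Atoh1, Prss23 (0.904) and Nrbp2 (0.899) for Neurod1, Baiap2l2 (0.974) and Acot2 (0.973) for Insm1, and Celsr2 (0.961) and Fnbp4 (0.954) for Pou2f3. These r values describe 18 libraries that share 3 conditions, 2 arms and the scaling of their tables.

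In single cells of irradiated day 8 organoids, Sox4 was higher at each later time under TGFB1 and the other 9 genes were rare. The 4 libraries held 2932, 4283, 2890 and 2218 cells at 0, 6, 15 and 24 h, with 27346016, 32430950, 26302424 and 30624807 UMIs (unique molecular identifiers, each standing for 1 captured RNA). With 1 library per time there is no test, and the intervals below are exact 95% Poisson intervals that cover counting error only. Sox4 was at 163 (158 to 168), 267 (262 to 273), 446 (438 to 454) and 569 (561 to 578) CPM (UMIs of the gene per 1000000 UMIs) at 0, 6, 15 and 24 h. Each interval lay above the one before it, and the ratios to 0 h were 1.64, 2.74 and 3.498. Sox4 was the only one of the 10 genes at 10 CPM or more, and it was at least 2-fold higher at 15 h and 24 h, as were 2.67% and 5.41% of all genes at that level (1.25% at 6 h). After thinning every cell to 2000 UMIs, Sox4 was found in 22.7%, 29.9%, 38.9% and 42.3% of cells, and in 50.1%, 51.9%, 59.4% and 68.7% before thinning. The plot of CPM by treatment time shows all 10 genes.

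Among the rare genes, the 0 h and 24 h intervals were apart for Insm1 (87 and 159 UMIs, 3.18 and 5.19 CPM), Neurod1 (26 and 59 UMIs, 0.951 and 1.93 CPM) and Pou2f3 (15 and 51 UMIs, 0.549 and 1.67 CPM). After thinning, the shares of cells with a UMI at 0 h and 24 h were 0.580% and 1.26% for Insm1, 0.273% and 0.676% for Neurod1 and 0.0682% and 0.361% for Pou2f3, with overlapping intervals for all 3. Insm1 was lowest at 6 h (1.88 CPM) and Neurod1 was at 0.725 and 1.25 CPM at 6 and 15 h, so neither followed a single direction over the 4 times. Neurog3 stood at 1.17, 1.05, 1.60 and 1.83 CPM, Atoh1 at 1.57, 1.42, 0.989 and 1.53 CPM, and Spdef at 2.08, 1.20, 1.98 and 2.12 CPM, with overlapping intervals at 0 h and 24 h. Gfi1 had 3 to 11 UMIs per library, Pax4 5 to 12 and Isl1 0 to 11. For the 0 UMIs of Isl1 at 15 h the exact interval reached 0.140 CPM, where 3 UMIs would be 0.114 CPM, again for counting error only. Enteroendocrine markers summed to 39.4, 34.9, 80.8 and 199 CPM and tuft markers to 6.55, 6.91, 8.04 and 14.5 CPM in the same libraries; their part in the levels of Neurod1, Insm1 and Pou2f3 was not tested. These organoids differed from the bulk ones in TGFB1 dose, in day and in assay, so the values stand side by side without a comparison.

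The rare factors sat in a small cell population and Sox4 did not. Cells were clustered without the 10 genes, and clusters were set aside where marker genes of a secretory lineage had a median fold of at least 5 over other cells, a limit chosen after the data were seen. In organoids 1 cluster passed, with 315 of 12323 cells (2.56%), led by Afp, Tff3, Hepacam2, Reg4 and Chga; it mixed goblet, tuft and enteroendocrine markers and was left unnamed. It held 83.5% of Neurog3 UMIs (95% Clopper-Pearson interval 77.0 to 88.9%), 73.5% of Gfi1, 69.8% of Atoh1, 68.2% of Insm1, 67.8% of Neurod1, 65.7% each of Pax4 and Pou2f3, 61.5% of Spdef and 58.8% of Isl1. Of Sox4 UMIs it held 5.07% (4.86 to 5.28%). These intervals take each UMI as independent, though all UMIs of a cell fall in or out of the cluster together, so they are too narrow. Inside the cluster Sox4 was at 579, 748, 1531 and 1238 CPM at 0, 6, 15 and 24 h, and outside it at 153, 257, 429 and 558 CPM, so the 24 h level was above the 0 h level in both. The cells of the cluster sat in different sub-clusters at different times, as given next, and the part of this in the Sox4 level was not tested. The cluster held 2.39%, 2.33%, 2.28% and 3.56% of cells at the 4 times.

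Within that cluster, 7 sub-clusters, again made without the 10 genes, held different factors. Folds of sub-clusters are over the other cells of the secretory cluster. Sub-cluster 3 (52 cells), led by Afp, Gpx3, Olfm1 and Tph1, had a median fold of 30.0 for the enteroendocrine markers. It had Insm1 at 678 CPM, Neurog3 at 385 CPM, Neurod1 at 368 CPM, Pax4 at 62.8 CPM and Isl1 at 37.7 CPM. In cells outside the secretory cluster these 5 genes were at 1.07, 0.236, 0.398, 0.105 and 0.0612 CPM. Neurod1 was found in 78.8% and Insm1 in 76.9% of the sub-cluster's cells, against 0.375% and 0.883% of cells outside the secretory cluster, with median depths of 3741 UMIs inside and 7754 UMIs outside. Spdef and Gfi1 had 0 UMIs there and Atoh1 had 1. Sub-cluster 4 (27 cells) was led by Lrmp, Spib and Trpm5, with a median fold of 112 for the tuft markers. It held Pou2f3 at 434 CPM (334 to 555), in 66.7% of its cells, and 0 UMIs of Atoh1, Gfi1, Neurod1, Pax4 and Isl1. Spdef (9 UMIs, 61.1 CPM), Insm1 (7 UMIs, 47.5 CPM) and Neurog3 (2 UMIs, 13.6 CPM) were found there as well. Sub-cluster 5 (27 cells), with Defa17 and Mmp7 among its leading genes, had the highest Atoh1 (169 CPM), Spdef (135 CPM) and Gfi1 (27.0 CPM) and 0 UMIs of Neurog3, Neurod1 and Insm1. Sub-cluster 0 (67 cells), in which Dll1 was a leading gene, held both Atoh1 (87.2 CPM) and Neurog3 (47.5 CPM). Sox4 was above its level outside the cluster (351 CPM) in all 7, from 491 CPM in the sub-cluster led by the cell cycle genes Ccne2 and Rrm2 to 1745 CPM in sub-cluster 3 and 1927 CPM in sub-cluster 4. Sub-cluster 3 had 7, 12, 13 and 20 cells at 0, 6, 15 and 24 h, and sub-cluster 4 had 1, 11, 5 and 10. Sub-cluster 0 had 23, 33, 8 and 3, and the one led by Ccne2 and Rrm2, lowest in Sox4, had 18, 9, 0 and 0.

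**Figure D2:**
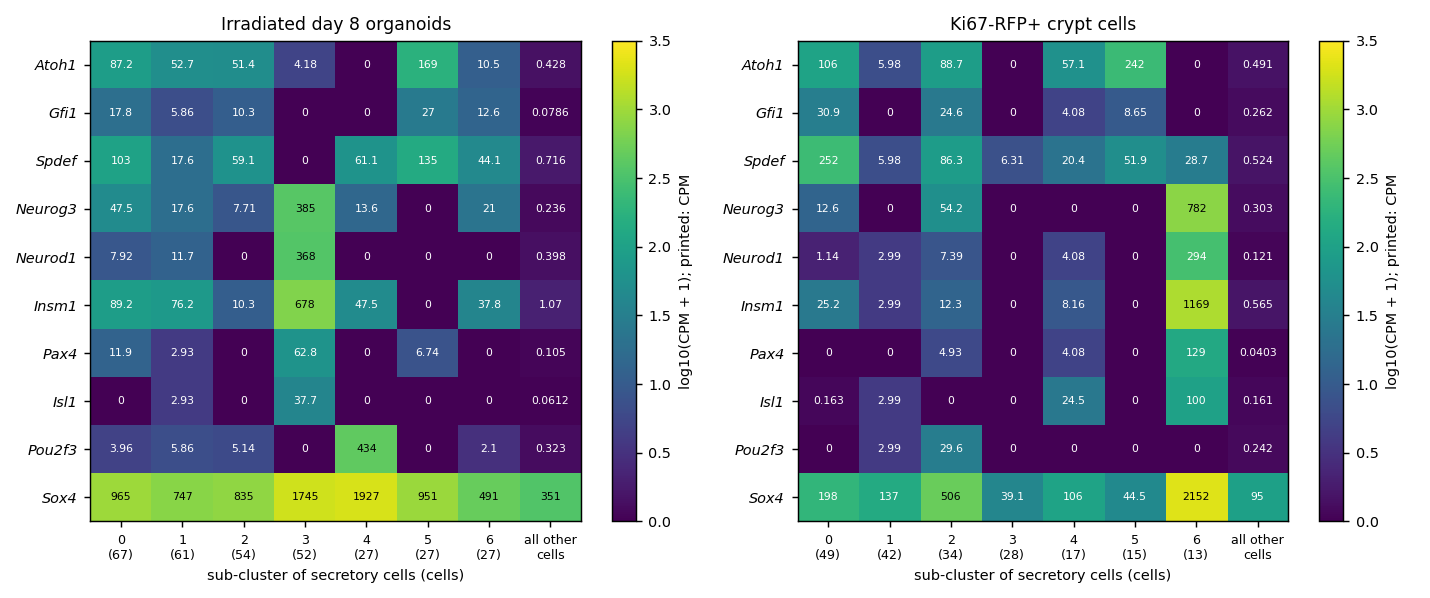
Level of each of the 10 genes (CPM, log10 axis) in the 7 sub-clusters of the organoid secretory cluster and in all other cells, with cell numbers on the horizontal axis. Neurog3, Neurod1 and Insm1 peak in sub-cluster 3, Pou2f3 in sub-cluster 4 and Atoh1 in sub-cluster 5, while Sox4 is at 351 CPM in all other cells and higher in each sub-cluster.

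Factors were also found together in single cells. Of 114 organoid cells with an Atoh1 UMI, 36 (31.6%) had a Spdef UMI, against 0.893% of the cells without Atoh1, with median depths of 8388 and 7655 UMIs. Of the same cells 10 (8.77%) had Gfi1, against 0.147%. Insm1 was in 3 (2.63% against 1.48%) and Neurod1 in 1 (0.877% against 0.737%), too few to show a difference. Of 68 cells with Neurog3, 42 (61.8%) had Insm1, against 1.16% of the cells without it, 27 (39.7%) had Neurod1, against 0.522%, and 63 (92.6%) had Sox4, against 56.1%. The cells with Neurog3 were the shallower ones (median 5802 against 7668 UMIs).

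In crypt cells sorted for Ki67-RFP, 5 of the 10 factors were higher after irradiation and 0 lower (edgeR; 0 also at an unadjusted p under 0.05 and with DESeq2), where 33.6% of all genes tested were called, 17.0% higher and 16.6% lower. UMIs were summed over the 1846 cells of the unirradiated library and the 719 and 699 cells of the irradiated ones (25767601, 13733744 and 12344815 UMIs) and tested with edgeR's quasi-likelihood test, in which the lone unirradiated library is assumed to vary like the irradiated group. Sox4 was at 66.7 CPM without irradiation and at 148 and 139 CPM after it. Both irradiated libraries were more than 2-fold above the unirradiated one, as for 13.9% of all genes tested, and the fitted difference was 0.93 on the log2 scale (adjusted p = 0.000583, edgeR). After thinning, Sox4 was found in 11.5% of unirradiated and in 23.4% and 25.6% of irradiated cells. Unthinned, the shares were 41.1%, 73.4% and 67.2%. Spdef was at 2.13 CPM without irradiation and at 12.2 and 6.24 CPM after it (1.94, adjusted p = 0.00249, edgeR).

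The endocrine factors Insm1, Neurog3 and Neurod1 had higher CPM in both irradiated libraries but rested on few cells. Insm1 had 38 UMIs without irradiation (1.47 CPM) and 117 and 66 after it (8.52 and 5.35 CPM), a difference of 2.06 (adjusted p = 0.00131, edgeR). Neurog3 had 33, 78 and 46 UMIs (1.28, 5.68 and 3.73 CPM; 1.70, adjusted p = 0.00632, edgeR) and Neurod1 9, 20 and 24 UMIs (0.349, 1.46 and 1.94 CPM; 2.08, adjusted p = 0.0185, edgeR). In the second irradiated library the 3 cells richest in each gene held 86.4% of Insm1, 95.7% of Neurog3 and 91.7% of Neurod1 UMIs, and 9, 5 and 5 cells had any. With DESeq2, Neurog3 (adjusted p = 0.0809) and Neurod1 (adjusted p = 0.239) did not pass, and Sox4, Spdef and Insm1 did. Atoh1 stood at 3.42, 4.00 and 4.37 CPM (0.12, adjusted p = 0.811) and Gfi1 at 0.699, 1.46 and 1.13 CPM (0.72, adjusted p = 0.358, edgeR), and neither passed. Pax4 (5, 7 and 11 UMIs), Isl1 (8, 2 and 19) and Pou2f3 (12, 0 and 13) did not pass either (adjusted p = 0.189, 0.410 and 0.977, edgeR). The plot of crypt CPM shows each library.

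Most UMIs of 8 of the 9 rare factors of the crypts also lay in few cells. A goblet-like cluster (126 cells) and a Paneth-like one (72 cells) together made up 7.15% of unirradiated and 5.84% and 3.43% of irradiated cells. Over the 3 libraries they held 91.3% of Spdef and Pax4 UMIs, 90.4% of Neurog3, 88.7% of Neurod1, 87.7% of Atoh1, 87.3% of Insm1, 75.0% of Gfi1, 72.6% of Isl1 and 52.0% of Pou2f3 (95% Clopper-Pearson interval 31.3 to 72.2%), and 13.9% of Sox4. That interval again takes each UMI as independent and is too narrow. Insm1 was among the leading genes of the goblet-like cluster, whose name gives its best-scoring marker list and not a single lineage. A sub-cluster of 13 cells led by Ghrl, the gene of the hormone ghrelin, with 3 unirradiated and 7 and 3 irradiated cells, held 163 of the 221 Insm1 UMIs, 109 of the 157 Neurog3 UMIs and 41 of the 53 Neurod1 UMIs, and 0 of Atoh1 and Gfi1. Sox4 was at 2152 CPM in those cells and at 95.04 CPM outside the secretory clusters. All 14 Isl1 UMIs of these 13 cells came from 1 cell. A sub-cluster of 49 cells, all from the irradiated libraries, held 220 of the 299 Spdef UMIs (252 CPM, in 81.6% of its cells) beside Atoh1 at 106 CPM. Other sub-clusters also split by library: those of 42, 17 and 15 cells were all unirradiated, as were 33 of 34 cells in another. In the one of 15 cells Atoh1 was at 242 CPM, in 86.7% of its cells, and Spdef at 51.9 CPM. Library, strainer and irradiation cannot be told apart in these splits. In a sub-cluster of 28 cells led by Defa genes, Sox4 was at 39.1 CPM, Spdef had 1 UMI and the other 8 factors had 0. In Paneth, goblet and enteroendocrine marker lists 7, 3 and 2 genes were lower and 1, 2 and 0 higher after irradiation. Of other lists, 5 of 12 enterocyte and 4 of 8 stem markers were lower and all 7 regenerative markers higher. Among 6 immune markers tested, Cd3e and Laptm5 were higher, and Laptm5 was also among the leading genes of the sub-cluster led by Ghrl. The immune sum was 10.1 CPM without irradiation and 18.2 and 13.8 CPM after it. The part of these shifts in the factors' levels was not tested. Of 88 crypt cells with Atoh1, 41 (46.6%) had Spdef, against 1.39% of the cells without it, and of 23 cells with Neurog3, 17 had Insm1 (73.9% against 0.802%), 10 Neurod1 (43.5% against 0.309%) and 8 Pax4 (34.8% against 0.0926%), and all 23 had Sox4, against 53.5%. Spdef was in 6 of these 23 cells (26.1% against 2.44%), and Neurod1 in 5 of 85 cells with Spdef (5.88% against 0.472%), each higher in 3 of 3 libraries.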

How the data were processed

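Bulk RNA-seq of 18 organoid libraries was read from 3 tables of FPKM, the authors' deposited unit, with 1 column per library. The submitters' processing notes name TopHat2 2.1.0, Cuffnorm 2.2.1, STARsolo, STAR 2.7.10a and Salmon 1.4 and the builds mm9, GRCm39 and mm39, without saying which served which file. Single-cell matrices hold the authors' deposited expected counts (UMIs shared between genes give fractions); cells were required to have at least 500 UMIs, at least 250 genes and no more than 20% of UMIs from mitochondrial genes, giving 699 to 4283 cells per library with median depths of 6709 to 14399 UMIs.

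The 10 genes and all gene lists were chosen with earlier results of these data known. From FPKM, log2(FPKM + 1) was fitted in R 4.3.3 with limma 3.58.1 (trend and robust empirical Bayes) within each table, for genes whose mean reached 1 FPKM and again at 0.1 FPKM (added after seeing the data), with Benjamini-Hochberg adjustment and calls under 0.05. The tables were scaled separately, so only effects within a table were tested, interactions included. Crypt sums were rounded and tested with edgeR 4.0.16 (1 residual degree of freedom; DESeq2 1.42.0 as alternative). Cells were clustered with scanpy 1.11.5 (2000 variable genes without the 10 genes, 30 principal components, 15 neighbours, Leiden resolution 0.6); organoid and crypt libraries were clustered apart, and doublet calls (scrublet, 0.286 to 1.56% of cells) were used for an alternative only. Shared cell barcodes numbered 1 between the 15 h and 24 h libraries and 1 between the 24 h and second irradiated crypt libraries. A crypt cluster was named only where at least 1 of its own markers was among its top 50 genes, a rule set after the data were seen.

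Genes named are the 10 factors, the 2 genes most correlated with each (those for Neurog3 are not reported here), and, from the lists, Hes1, Dll1, Dll4, Muc2, Lyz1, Chga, Chgb, Dclk1 and the largest called rise and fall. Fits were tested on simulated data. ATAC-seq peaks were not used here.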

Additional observations from a re-analysis of the deposited data

Results flagged for a closer look

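The TGFB1 effect differed between groups, by the interaction term of limma (adjusted p under 0.05, difference of log2(FPKM + 1) effects), for the following factors. Between irradiated and unirradiated day 7 organoids the effect differed by 0.44 for Sox4, −0.43 for Atoh1, 0.42 for Neurod1, −0.31 for Spdef and −0.27 for Pou2f3. Between day 11 and day 7 of irradiated organoids it differed by 1.84 for Spdef, 0.99 for Atoh1, 0.82 for Gfi1, 0.57 for Pax4, −0.41 for Insm1, −0.89 for Isl1, −1.21 for Neurod1 and −1.41 for Sox4, with Gfi1 and Isl1 tested at a minimum mean of 0.1 FPKM.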

How the results depend on the processing

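The count of factors called for the irradiation by TGFB1 interaction depended most on the processing: 5 at the main setting, 3 with a pseudocount of 0.1, with no filter, after quantile normalization, after median-ratio scaling or with the replicate block, 1 with all 18 libraries in one fit, and 2 to 4 with 1 library left out. With the minimum mean of 0.1 FPKM that count was 5, and 3 with a pseudocount of 0.1 or the replicate block, 1 with all 18 libraries in one fit and 2 to 4 with 1 library left out. The cause was not tested. In the crypts DESeq2 called 3 of the 5 genes that edgeR called. With 1 library left out, 4, 6 to 7, 4 to 7 and 5 to 6 factors were called for the 3 TGFB1 effects and the day interaction. Effects that changed sign were all uncalled: Pax4 on day 7 after irradiation (0.011 with median-ratio scaling, −0.12 to 0.13 with 1 library left out) and without irradiation (−0.0139 after quantile normalization, −0.042 to 0.084), Atoh1 on day 11 (−0.072 to 0.29), the irradiation terms of Isl1 (−0.0027 to 0.17) and Pax4 (−0.13 to 0.12), and the day term of Pou2f3 (0.047 with a pseudocount of 0.1, 0.089 after quantile normalization, −0.11 to 0.032). Of the list genes, Dll4 (0.032 after quantile normalization, −0.17 to 0.19 with 1 library left out) and Dclk1 (0.052, −0.063 to 0.072) changed sign on day 11. Same-numbered replicates correlated at −0.087 to 0.21 after removing group means, so the replicate number is not shown to pair libraries; with the block, the Neurog3 day term passed (adjusted p = 0.0111, limma) and the Spdef and Pou2f3 irradiation terms did not (0.0545 and 0.0631). All 210 single-cell CPM values stayed within their counting intervals with cells of at least 1000 UMIs, with whole parts of entries or without called doublets. No library held more than 5 cells under 2000 UMIs, and doublet calls covered 0.286 to 1.56% of cells. The 2 cell filters could therefore hardly move a value. Thinning to 1000 in place of 2000 UMIs draws fewer UMIs per cell, which by itself lowers shares of cells, and 33 shares lay beyond their intervals. Without 1 irradiated crypt library no test is possible, and 17 of 19 log2 ratios kept their sign. The accessibility alternatives were not run. Depth limits the rare genes: Gfi1, Pax4 and Isl1 rest on 12 or fewer UMIs in each organoid library.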
